A study of Rattus norvegicus with 10 samples.

Results

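The heat shock proteins and their J-domain and BAG co-chaperones were examined in rat brain after an odor was inhaled. The members were chosen by gene symbol: Hspa, Hspb, Hspd, Hspe, Hsph, Dnaja, Dnajb, Dnajc or Bag followed by a digit, Hsp90, and Cryab and Chordc1. The Affymetrix arrays measured 70 such genes, of 14217 genes named by a single-gene probe set, with 105 probe sets in all. Each gene was read from its probe set of highest mean level, and all 70 members were tested without a filter on low values. RNA came from the right hemisphere of the brain of 10 male Wistar rats aged 7 weeks, 1 array per rat. In the DMHF group, 5 rats breathed vapor of DMHF, a furanone with a sweet, strawberry-like smell, and in the control group 5 rats breathed vapor of distilled water. Air was pumped over 5 mL of liquid for 5 min, the brain was taken 10 min later, and inhalation took place before the dark phase. The rats are called biological replicates in the sample titles, and no genetic manipulation is named.

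Heat shock proteins are chaperones that bind unfolded protein. Hsp70 proteins hold exposed hydrophobic stretches in an ATP cycle, J-domain proteins bring clients and start ATP hydrolysis, and BAG domains and Hsp110 proteins act as nucleotide exchange factors that release the client. Hsp90 finishes the folding of kinases and hormone receptors, among them the glucocorticoid receptor, and small heat shock proteins keep unfolded protein from aggregating. Stress that unfolds protein frees the transcription factor Hsf1, which binds repeats of the pentamer nGAAn, the heat shock element. The unfolded protein response of the endoplasmic reticulum (ER) acts through another promoter element, the ER stress response element. In neurons, constitutive Hsp70 with the J proteins Dnajc5 and Dnajc6 serves synaptic vesicle exocytosis and the uncoating of clathrin.

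Promoter sequences are shown for members that carry these elements, since these are the letters that Hsf1 and the ER stress response are known to act through. RefSeq windows on the rat build GRCr8, from 250 bases before to 50 after the annotated start, were matched for 57 of the 70 members. Each was searched on both strands for 3 alternating pentamers, GAANNTTC followed directly by NNGAA, or its reverse complement, TTCNNGAA followed directly by NNTTC. That motif was present in 5 of the 57 windows (8.77%), those of Hsph1, Dnaja1, Chordc1, Hspe1 and Hspd1, and in 267 of all 33469 windows (0.798%). Hspe1 and Hspd1, the mitochondrial cochaperonin and chaperonin, lie head to head, their windows share 211 bases, and the element is the same one, so it is shown once. In the lines that follow, capitals mark the heat shock element, with overlapping matches joined in Chordc1 and Hspe1.
Hsph1 (chr12:10427292-10427384, plus strand): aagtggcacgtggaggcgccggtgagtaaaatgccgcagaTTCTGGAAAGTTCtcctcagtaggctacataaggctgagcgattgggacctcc
Dnaja1 (chr5:60638373-60638453, plus strand): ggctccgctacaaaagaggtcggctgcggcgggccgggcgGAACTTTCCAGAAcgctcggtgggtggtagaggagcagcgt
Chordc1 (chr8:23650791-23650870, plus strand): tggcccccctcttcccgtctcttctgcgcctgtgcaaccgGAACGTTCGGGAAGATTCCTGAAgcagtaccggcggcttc
Hspe1 (chr9:64084222-64084319, plus strand): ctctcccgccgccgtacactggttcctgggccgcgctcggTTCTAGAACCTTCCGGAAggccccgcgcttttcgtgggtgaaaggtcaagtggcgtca
With the annotated start as position 0, the element ran from -36 to -24 in Hsph1 and from -65 to -48 in Hspe1, and from 9 to 21 in Dnaja1 and 10 to 32 in Chordc1. The shorter pair of pentamers (GAANNTTC or TTCNNGAA, which the longer motif contains) was present in 16 of 57 member windows (28.1%), among them Hspb1, Dnajb1, Bag3 and Hspa4l, and in 15.9% of all windows. The ER stress response element (CCAAT and CCACG with 9 bases between them, both strands) was present in 3 member windows (5.26%) and 22 of all windows (0.0657%). The 3 members are ER residents: Hspa5 (BiP) is the Hsp70 of the ER, Hsp90b1 its Hsp90, and Dnajc3 a J protein that also inhibits the kinase PERK. Capitals mark that element in 2 of them.
Hspa5 (chr3:38452933-38453031, plus strand): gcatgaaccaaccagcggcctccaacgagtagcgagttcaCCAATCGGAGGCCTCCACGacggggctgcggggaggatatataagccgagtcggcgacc
Dnajc3 (chr15:102432494-102432592, plus strand): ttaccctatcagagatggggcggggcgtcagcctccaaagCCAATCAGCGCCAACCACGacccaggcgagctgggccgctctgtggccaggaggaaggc
A match is a description of the letters in the window and not a measured binding site.

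No heat shock protein or co-chaperone was called higher or lower in the DMHF group than in the control group. Of the 70 members 0 had an adjusted p under 0.05 (limma, two-sided, adjusted over all 31042 probe sets), as did 0 of all genes (0%), and the smallest adjusted p among members was 0.843. Before adjustment limma gave 3 members a p under 0.05, Hspa1a as higher and Dnajc18 and Dnajb14 as lower in DMHF, as it did 4.80% of all genes (2.98% higher and 1.83% lower). The exact permutation test over all assignments of the rats to the groups called 0 probe sets after adjustment (0%, smallest adjusted p = 0.915). Its smallest possible p, 0.00794, could hardly pass an adjustment over 31042 probe sets, so that count is set by the design. Its unadjusted p was under 0.05 for 3 members (Hspa1a, Dnajc18 and Dnajc27) and 4.82% of genes. By sign, 39 members were nominally higher in DMHF and 31 lower, against 53.0% of all genes nominally higher. The median difference was 0.0513 within-group SD over members and 0.0477 over all genes. The number on the higher side fell below 35 of 70 when an array was left out, to 29 without DMHF replicate 1, to 30 without control replicate 3 and to 31 without control replicate 5. With all arrays, the share of nominally higher members and their median both lay near those of all genes.

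Differences are given on the deposited log2 scale, in millionths of a unit, because the deposited values vary very little between arrays. The SD of a gene over the 10 arrays had a median of 1.82 millionths over all genes and 1.39 over members, and 4 members were above the 95th percentile of all genes (16.5) on this scale: Hspb1, Cryab, Hspa2 and Dnajb7. These units cannot be read as fold changes of RNA and are not comparable between genes, so each difference is also given in within-group SD of its probe set. Values by rat are given as distance from the mean of the control rats. The deposited values ran from 5.252 to 14.216 with array medians of 7.24. The mean levels of the 5 neuron markers lay between 9.06 and 13.34 and those of the 5 measured oligodendrocyte markers between 10.14 and 13.79 on that scale. Since the lowest deposited value was 5.252, no marker could be at 0. In whole tissue, fewer cells of a type and less RNA per cell cannot be told apart.

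**Figure D1:**
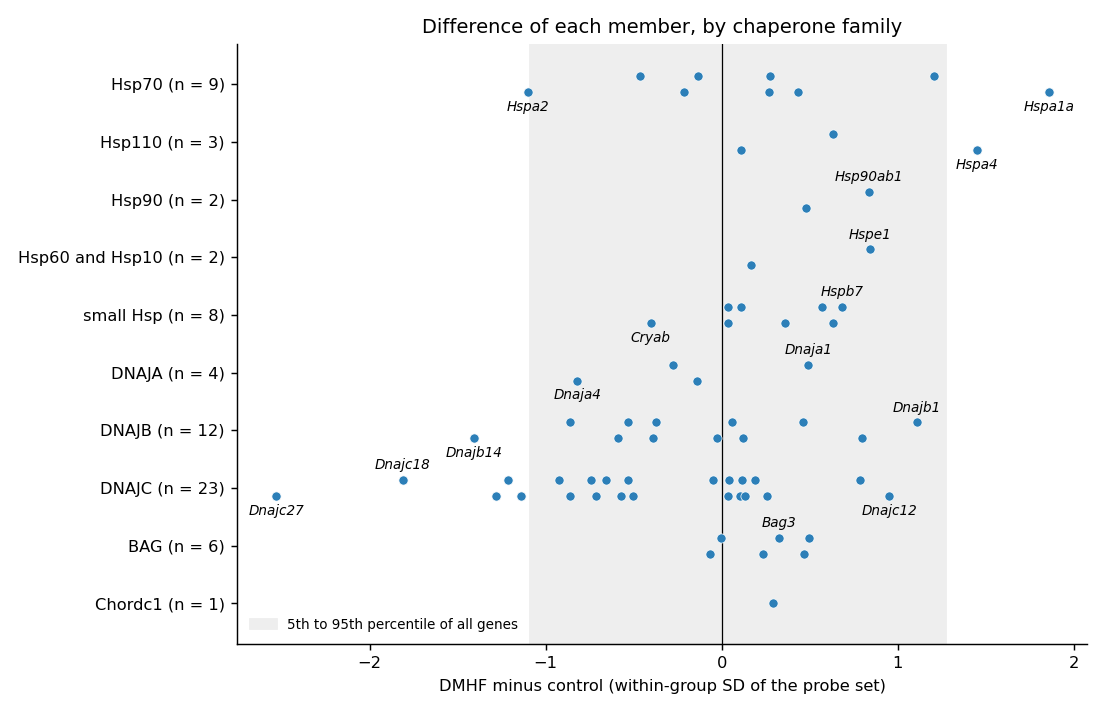
Each point is a member gene, placed by its difference, DMHF minus control, in within-group SD of its probe set (horizontal axis) and by chaperone family (rows). The grey band spans the 5th to the 95th percentile of all genes (-1.09 to 1.27), Hspa1a and Hspa4 lie to its right, and Dnajc27 and Dnajc18 lie farthest to its left.

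The signs are given by family, beside the 53.0% of all genes that were nominally higher, and no difference between families was tested. Of 9 Hsp70 genes 5 were nominally higher in DMHF, of 3 Hsp110 genes all 3, of 8 small heat shock proteins 7, both measured genes of Hsp90, both of the Hsp60 and Hsp10 pair, and of 6 BAG genes 4. Of the 39 J proteins, 1 of 4 DNAJA, 5 of 12 DNAJB and 9 of 23 DNAJC genes were nominally higher. The median difference was 0.237 SD for small heat shock proteins and -0.531 SD for DNAJC genes, and 59 of the 70 members differed by less than 1 SD. With single arrays left out, between 13 and 19 of the 23 DNAJC genes were nominally lower.

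Hspa1a, the stress-inducible cytosolic Hsp70, had the smallest limma p of the members. It stood at 19.7, 4.62, 2.56, 20.4 and 11.3 millionths from the control mean in DMHF rats, against 2.64, 0.888, -5.83, 0.664 and 1.64 in control rats. The DMHF rats 1, 4 and 5 were well above every control rat, DMHF rat 2 was slightly above, and DMHF rat 3 lay just under the highest control rat, so the groups overlapped by that rat. The difference was 11.7 millionths (SE 3.80), or 1.86 SD, with an unadjusted p of 0.0133 and an adjusted p of 0.843 by limma, and an exact two-sided permutation p of 0.0159. With single arrays left out it stayed between 9.54 and 14.01. Its mean of 6.94 lay below the array median, and the near-identical gene Hspa1b could contribute to its probes.

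A further probe set, annotated to both Hspa1a and Hspa1b and therefore no member, was set beside it after its values were seen. It stood at 1.91, 0.619, 1.87, 1.37 and 1.13 in DMHF rats, against 0.360, -1.05, 0.612, 0.606 and -0.528 in control rats. Every DMHF value exceeded every control value, although DMHF rat 2 exceeded control rat 3 by very little, and 0.535% of all probe sets showed that order, as did 0 of the 70 members and 0.549% of genes. The difference was 1.38 millionths (SE 0.447), or 2.11 SD, with an unadjusted limma p of 0.0133 and an exact permutation p of 0.00794, the smallest the design allows. Within the groups, however, this probe set ordered the rats differently from the one that stands for Hspa1a. Control rat 3 was the lowest of all rats there (-5.83) but the highest control rat here (0.612). DMHF rat 3 was the lowest of its group there (2.56) but stood at 1.87 here.

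Markers of some neighbouring tissues were also mostly nominally higher in the same comparison, beside 53.0% of all genes. Mean levels ran from 7.00 to 7.06 for ependyma, 6.47 to 12.78 for choroid plexus and 5.76 to 7.42 for pituitary markers. The array medians were 7.24 and the lowest deposited value 5.252. In DMHF rats the mean standardised value of the 3 ependyma markers ran from -0.177 to 1.22 SD, against -1.74 to 0.448 SD in control rats, and all 3 of 3 were nominally higher. The 5 measured choroid plexus markers ran from -0.596 to 1.69 in DMHF rats, against -1.79 to 0.687 in control rats (5 of 5 higher), and the 6 pituitary markers from -0.104 to 1.19 in DMHF rats, against -1.77 to 0.0418 in control rats (5 of 6 higher). Among ependyma markers the smallest p belonged to Foxj1 and Tmem212 (1.38 SD each). Among choroid plexus markers it belonged to Folr1 and Ttr (1.43 and 0.830 SD). In the pituitary list Cga and Tshb had the smallest p (2.58 and 1.98 SD), while Prl and Pomc differed by 0.0398 and -0.448 SD. The part of these tissues in the Hspa1a difference was not tested. The astrocyte markers, with 3 of 5 nominally higher, ran from -0.396 to 0.846 in DMHF rats, against -0.954 to 0.281 in control rats. Their smallest p belonged to Gfap (1.56 SD) and Slc1a2 (-0.848 SD). Other marker lists, of 10 in all, leaned lower. Of 6 endothelium and mural markers 1 was nominally higher (median -0.497 SD). So were 2 of 5 muscle (median -0.461 SD) and 2 of 5 measured oligodendrocyte markers (median -0.215 SD). Neuron and microglia markers had 3 of 5 nominally higher each, and blood markers 1 of 2.

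In within-group SD, the other Hsp70 genes differed by less than Hspa1a. Hspa1l, a testis-enriched Hsp70 next to Hspa1a, stood at 0.280, 0.879, 1.09, 0.419 and 1.04 millionths in DMHF rats, against 0.645, -0.451, 1.03, -0.459 and -0.766 in control rats. All 5 DMHF rats lay above the control mean, and DMHF rats 3 and 5 were slightly above every control rat. Control rats 1 and 3 lay above DMHF rats 1 and 4 (difference 0.742, SE 0.427, exact permutation p = 0.103). The mean level of Hspa1l, 5.65, was near the lowest deposited value of 5.252. Hspa2, an Hsp70 also rich in testis, stood at -42.1, -188, -43.4, -150.4 and 30.3 millionths in DMHF rats, against -11.9, -51.7, 30.2, 67.0 and -33.5 in control rats. Rats 2 and 4 of the DMHF group were far below every control rat, and the other 3 lay within the control range. The difference of -78.7 millionths (SE 43.0) was -1.10 SD and did not pass (exact permutation p = 0.127). The ER chaperone Hspa5 differed by 0.922 (SE 2.07) and the mitochondrial Hspa9 by -0.118 (SE 0.575), both well inside the spread between rats.

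Among the Hsp110 genes, Hspa4 stood at 0.781, 0.446, 0.431, 0.764 and -0.0728 millionths in DMHF rats, against -0.0668, -0.0508, 0.519, -0.181 and -0.221 in control rats. DMHF rats 1 and 4 lay above every control rat, and control rat 3 lay among the DMHF values. The difference of 0.470 (SE 0.288) was 1.45 SD (unadjusted limma p = 0.138, exact permutation p = 0.0794). The heat-inducible Hsph1 differed by 0.352 (SE 0.396) and Hspa4l by 0.208 (SE 1.14), without a group separation in either.

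**Figure D2:**
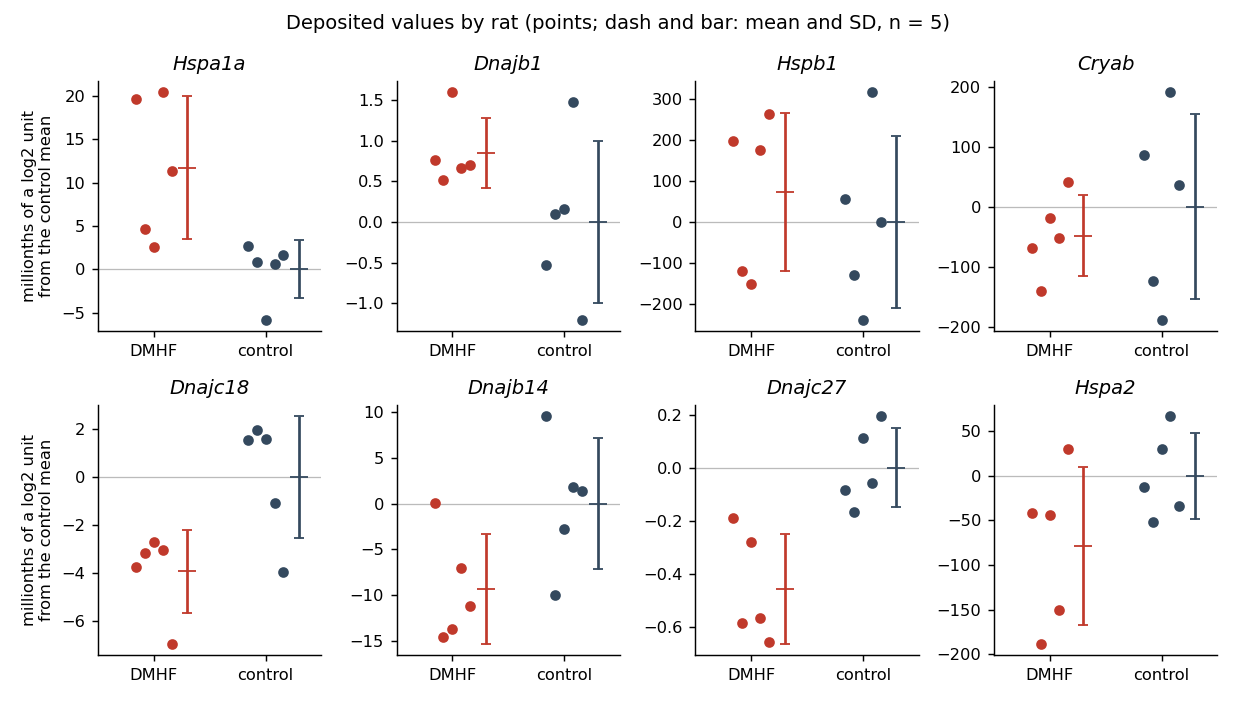
Each panel shows a member with its value in every rat (points), in millionths of a log2 unit from the control mean, for DMHF rats (left) and control rats (right). The dash and bar give the mean and SD of 5 rats. In Hspa1a 4 of 5 DMHF rats lie above all control rats, in Dnajc27 all 5 lie below, and in Hspb1 and Cryab both groups cover a wide common range.

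The Hsp90 and chaperonin genes differed by less than 1 SD each. Hsp90ab1, the constitutive cytosolic Hsp90, stood at 1.18, 0.0840, 0.134, 0.354 and 0.314 millionths in DMHF rats, against 0.794, 0.0240, -0.226, 0.104 and -0.696 in control rats. DMHF rat 1 was the highest of all, and the remaining DMHF rats lay within the control range. The difference was 0.414 (SE 0.367), or 0.834 SD, and a second probe set of the gene gave -0.216 (SE 0.615). Hsp90b1 differed by 0.460 (SE 0.614). The mitochondrial chaperonin Hspd1 differed by 0.588 (SE 2.16) and its partner Hspe1 by 0.432 (SE 0.375, 0.842 SD).

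The small heat shock proteins Hspb1 and Cryab had SDs of 195 and 115 millionths over the 10 arrays on the deposited scale, which does not rank them against other genes. Hspb1, the inducible Hsp27, stood at 198, -120.3, -151, 175 and 264 in DMHF rats, against 54.9, -131, -239.98, 317 and -0.734 in control rats. Rats of both groups were spread over the whole range, and the highest and the lowest value were both in control rats. The difference of 73.3 millionths (SE 122) was 0.362 SD, and it was 13.3 once control replicate 3 was left out and 153 once control replicate 4 was. Cryab, alpha-B crystallin, abundant in glia, stood at -69.3, -141, -18.1, -52.5 and 40.7 in DMHF rats, against 85.3, -123, -188, 190.3 and 35.7 in control rats, and was the single small heat shock protein with a negative difference (-48.0, SE 71.6). All DMHF values of Cryab lay inside the control range, and its difference was -95.1 when control replicate 3 was dropped and -0.462 when control replicate 4 was. Hspb6, Hspb7, Hspb8 and Hspb9 differed by 5.60, 6.48, 0.242 and 0.170 millionths, each under 1 SD.

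Among the J proteins, Dnajb1 (Hsp40), the inducible partner of Hspa1a, stood at 0.768, 0.522, 1.60, 0.664 and 0.701 millionths in DMHF rats, against -0.530, 0.0958, 0.157, 1.48 and -1.21 in control rats. All 5 DMHF rats lay above the control mean, and control rat 4 was above all of them except DMHF rat 3. The difference was 0.850 (SE 0.508), or 1.11 SD (exact permutation p = 0.135), and its other probe set gave 0.946 (SE 0.479, 1.33 SD, exact permutation p = 0.0714). Dnaja1, an inducible farnesylated J protein, differed by 0.600 (SE 0.764), and the abundant Dnaja2 by -0.0480 (SE 0.237).

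The J proteins with the smallest p on the lower side were Dnajc18, Dnajb14, Dnajc27 and Dnajc30. Dnajc18, a membrane-anchored J protein of the DNAJB12 and DNAJB14 type, stood at -3.78, -3.19, -2.70, -3.04 and -6.96 millionths in DMHF rats, against 1.55, 1.94, 1.58, -1.08 and -3.98 in control rats. All 5 DMHF rats lay below the control mean, and a single control rat, replicate 5, lay among them. The difference was -3.93 (SE 1.32), or -1.81 SD, with an unadjusted p of 0.0159 and an adjusted p of 0.868 by limma (exact permutation p = 0.0397). It stayed between -4.93 and -3.18 with single arrays left out.

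Dnajb14, an ER-anchored J protein that helps degrade misfolded membrane proteins, stood at 0.106, -14.5, -13.7, -7.06 and -11.2 millionths in DMHF rats, against 9.56, -9.96, -2.77, 1.76 and 1.41 in control rats. In DMHF rats 2, 3 and 5 it was lower than in any control rat, and in DMHF rat 1 it was near the control mean. The difference was -9.29 (SE 3.97), or -1.41 SD (unadjusted limma p = 0.0445, adjusted p = 0.895, exact permutation p = 0.0635). Both its other probe sets were on the same side, at -2.12 (SE 1.51) and -0.196 (SE 0.489). Its close relative Dnajb12 gave -0.320 (SE 0.309) on the probe set that stands for it and -7.63 (SE 2.42, exact permutation p = 0.0317) on the other.

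Dnajc27, a Rab-like GTPase with a J domain, was the only member whose groups did not overlap. It stood at -0.191, -0.585, -0.281, -0.566 and -0.658 millionths in DMHF rats, against -0.0846, -0.167, 0.113, -0.0566 and 0.194 in control rats. Every DMHF rat lay below every control rat, by a narrow gap between DMHF rat 1 and control rat 2, and 0.345% of all genes showed that order. The difference of -0.456 millionths was the largest of the members in SD units, at -2.53. The exact permutation p was 0.00794, the smallest the design allows, with an adjusted p of 0.915. The limma p was 0.0892, from a moderated SE of 0.239 that exceeded the SD of either group (0.206 in DMHF rats and 0.149 in control rats).

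Of the remaining J proteins, Dnajc30, a mitochondrial J protein of the inner membrane, differed by -1.20 millionths (SE 0.631, -1.22 SD) but by 0.762 on its other probe set. Dnajc19, of the mitochondrial import motor, stood at -3.29, -0.713, -1.30, -1.79 and 0.781 in DMHF rats, against -0.426, 0.364, -0.634, 0.393 and 0.301 in control rats. Its DMHF values lay below all controls in 4 rats and above all controls in rat 5, and the difference of -1.26 (SE 0.700) was -1.14 SD. On the higher side, Dnajc12, a J protein that binds aromatic amino acid hydroxylases, stood at 30.6, -2.70, 1.60, 15.04 and 6.48 in DMHF rats, against -3.72, -4.08, -7.95, 5.59 and 10.2 in control rats. DMHF rats 1 and 4 stood above the controls and the others did not (difference 10.2, SE 6.46, 0.951 SD). Dnajc10, an ER disulfide reductase, differed by 1.75 (SE 1.36).

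The J proteins of the synapse differed by less than 1 SD on the probe sets that stand for them. Dnajc5, the cysteine string protein of synaptic vesicles, differed by 0.0660 millionths (SE 0.264, 0.255 SD, exact permutation p = 0.754). Dnajc6, auxilin, differed by -0.0720 (SE 0.221, -0.741 SD, exact permutation p = 0.278). The moderated SE of Dnajc6 exceeded the SD of either group (0.0765 in DMHF rats and 0.114 in control rats). The other probe sets of Dnajc5 gave 0.453 (1.27 SD, exact permutation p = 0.0952) and -2.06 (-0.286 SD, exact permutation p = 0.587). The testis-associated Dnajb7, with the lowest mean of the members at 5.52, differed by -0.792 (SE 18.2).

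Among the co-chaperones, Bag1, an exchange factor that links Hsp70 to the proteasome, differed by 3.39 millionths (SE 4.35), and Bag3, the stress-inducible partner of Hspb8 in selective autophagy, by 2.01 (SE 3.74). Bag3 stood at 2.62, -4.29, -2.36, 7.68 and 6.39 in DMHF rats, against 1.56, 4.34, -12.3, 1.72 and 4.67 in control rats. Control rat 3 was far below the others, and without it the Bag3 difference was -1.07. Chordc1 (morgana), an Hsp90 co-chaperone, differed by 1.42 (SE 2.93).

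The members known to be induced by Hsf1 were looked at as a group across rats. Of 16 such genes listed, 13 were measured, 12 of them nominally higher in DMHF and Cryab nominally lower, with a median difference of 0.492 SD and 0 past the adjusted test. An overlapping heat shock list had shown that direction in these arrays before the group was drawn up, so the count is no independent evidence of it. Their mean standardised value by rat was 1.12, -0.154, -0.277, 0.257 and 0.479 SD in DMHF rats 1 to 5, against 0.332, -0.137, -1.07, 0.426 and -0.977 SD in control rats 1 to 5. The lowest were control rats 3 and 5, in which 1 and 2 of the 13 genes lay above their mean over all rats, and the highest was DMHF rat 1, in which 12 did, as in DMHF rat 5. The other 7 rats of both groups overlapped. Without control replicate 5 the count on the higher side was 9 of 13, and it was 10 without DMHF replicate 1 and also without control replicate 3. With the probe set of the largest SD standing for each gene, the count was 10 of 13 as well.

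**Figure D3:**
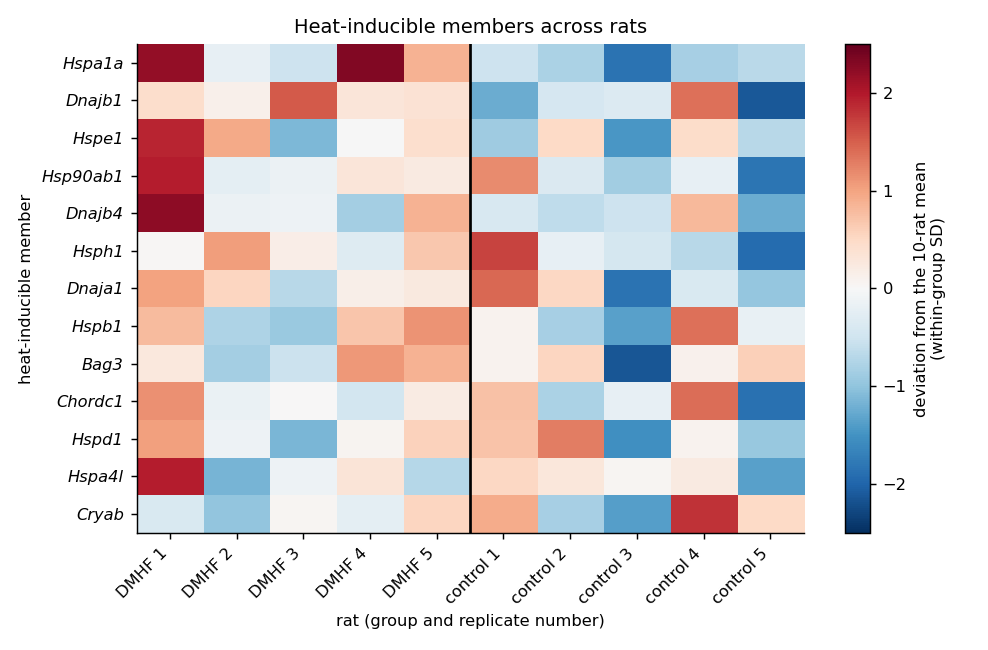
Rows are the 13 measured heat-inducible members and columns the rats, DMHF left and control right of the black line. Colour gives the deviation from the 10-rat mean in within-group SD (red above, blue below). The columns of control rats 3 and 5 are mostly blue and those of DMHF rats 1 and 5 mostly red (12 of 13 genes above the mean in each), while the other columns are mixed.

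These genes varied together from rat to rat within the groups. Over the 78 pairs of the 13 genes, Pearson's r of the deviations from the group means was positive for 68, and the mean pairwise r was 0.357, against 0.0877 over all 70 members and 0.00637 over all genes. The rats share their arrays' processing, so these are descriptions of the deposited values. No mean pairwise r was computed for gene lists outside the members, so joint variation is not shown to be particular to these genes. The mean standardised value of 13 CCT chaperonin and prefoldin genes also differed between rats, from -0.659 to 1.15 SD within the DMHF group. Of 10 partners planned for Hspa1a, 8 were measured, and the closest was Bag3 (r = 0.721, exact permutation p = 0.0135, adjusted p = 0.108 over the 8 pairs; Spearman's rho = 0.612, exact p = 0.102). Without the 2 rats farthest from the median of Hspa1a, r was 0.676. Hspb1 followed (r = 0.672, exact p = 0.0448, adjusted p = 0.152; rho = 0.527, exact p = 0.139; r = 0.603 without the 2 farthest rats). None of the 8 pairs passed the adjustment.

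Among all 78 pairs, looked at after the values were seen, the exact within-group permutation test called 1 at an adjusted p under 0.05 by Pearson's r and 2 by Spearman's rho. Dnajb4, an Hsp40 of the Dnajb1 type, and Chordc1 had r = 0.794 and rho = 0.879, each with an exact p of 6.94e-05, the smallest that 14400 permutations can give (adjusted p = 0.00542). Without the 2 rats farthest from the median of Dnajb4, r was 0.610. Hsp90ab1 and Hspa4l had rho = 0.939 (exact p = 0.000764, adjusted p = 0.0298) and r = 0.845 (exact p = 0.00174, adjusted p = 0.0677), and r = 0.785 without the 2 farthest rats. Hspb1 and Cryab had r = 0.785 and rho = 0.709 (exact p = 0.0101 and 0.0295, adjusted p = 0.198 and 0.404), with r = 0.546 without the 2 farthest rats. Hspd1 and Hspe1, which share the promoter element shown above, had r = 0.741 and rho = 0.709 (exact p = 0.0199 and 0.0372, adjusted p = 0.237 and 0.404), and r = 0.464 without the 2 farthest rats.

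**Figure D4:**
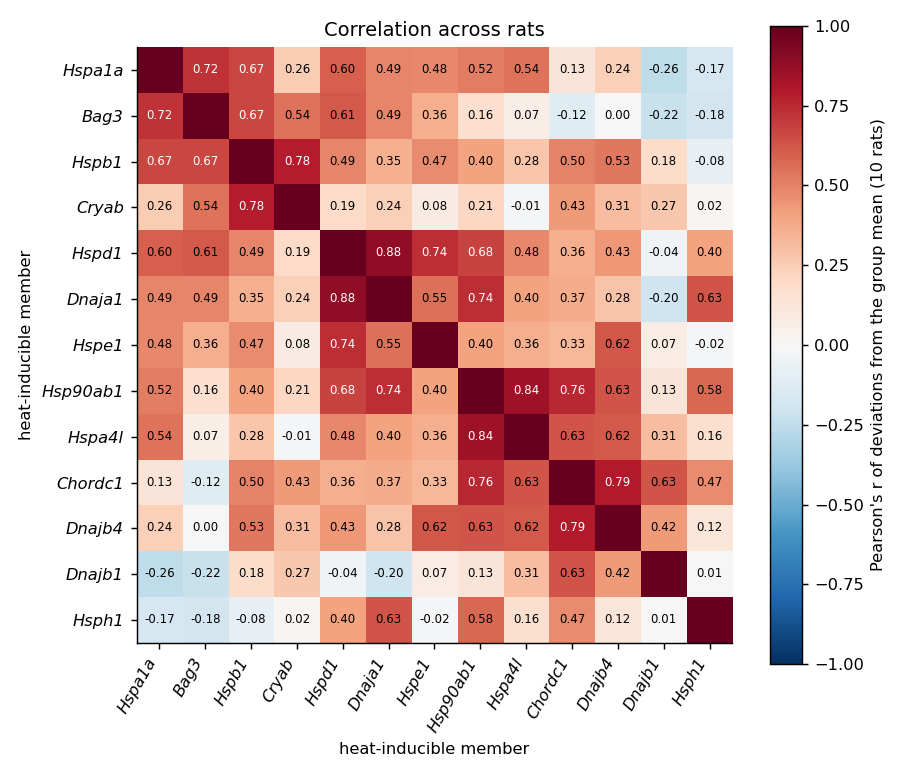
Each cell gives Pearson's r between 2 heat-inducible members over the deviations of 10 rats from their group means (red positive, blue negative). Hspd1 with Dnaja1 (0.883), Hsp90ab1 with Hspa4l (0.845) and Chordc1 with Dnajb4 (0.794) are the highest, and 10 of the 78 pairs are negative.

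The 5 members with the long heat shock element in their windows all had a positive difference, but each was under 1 SD: Chordc1 and Dnaja1 as given above, Hspd1 at 0.588, Hspe1 at 0.432 and Hsph1 at 0.352 millionths. On its other probe set Hsph1 gave -1.52 millionths (SE 3.01). All 5 members belong to the heat-inducible group above, whose direction was known beforehand, so their signs are no separate evidence. Hspd1 and Hspe1 also share their element. Over all 53 measured genes with that motif, these 5 among them, 34 (64.2%) were nominally higher. Their median difference was 0.120 SD, and over all genes the values were 53.0% and 0.0477 SD. Of the 16 members with the shorter pair, 11 were nominally higher and 5 lower, and Dnajc18 and Dnajc27 were among those 5. The 3 members with the ER stress response element differed by 0.922 (Hspa5), 0.460 (Hsp90b1) and 2.95 millionths (Dnajc3), all under 1 SD.

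Among genes that work with the members, too, 0 passed the adjusted limma test in any list. The shares on the higher side varied between lists, beside 53.0% of all genes, and no difference between lists was tested. Of 19 measured Hsp70 and Hsp90 co-chaperones outside the symbol rule, 11 were nominally higher, with Cdc37, which loads kinases onto Hsp90, at 0.724 millionths (SE 0.344, 1.61 SD, unadjusted p = 0.0650) and its relative Cdc37l1 at -1.40 (SE 0.789). Of 13 subunits of the CCT chaperonin and prefoldin, which fold actin and tubulin, 7 were nominally higher. Cct2 differed by 0.668 (SE 0.449, 1.02 SD) and Tcp1 by 0.624 (SE 0.545, 0.747 SD). Of 18 genes of ER folding and the unfolded protein response, 14 were nominally higher (77.8%), with a median of 0.323 SD against 0.0477 SD over all genes. The smallest p there belonged to Manf, a secreted ER stress protein, at 3.91 (SE 1.45, 1.64 SD, unadjusted p = 0.0252), and Sel1l, an adaptor of ER-associated degradation, at 3.44 (SE 1.65). The heat shock factors and their regulators had 2 of 5 nominally higher, with Hsf2bp at 5.48 (SE 2.72) and Hsf4 at 2.47 (SE 2.38). Mitochondrial chaperones and proteases outside the rule had 2 of 6 nominally higher. Clpb, a disaggregase, differed by -2.61 (SE 1.84, -0.857 SD) and the protease Lonp1 by 0.311 (SE 0.246, 1.52 SD). Of 3 measured J proteins with other names, 2 were nominally higher, with Gak, the auxilin of non-neuronal cells, at 0.371 (SE 0.336) and Hscb, of iron-sulfur cluster assembly, at -4.78 (SE 9.20).

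By compartment, 6 of 8 listed ER-resident members were nominally higher, led by Dnajc10 and with Dnajb9, a BiP cofactor, at -0.625 (SE 0.670). Of 8 mitochondrial members 3 were nominally higher, against 53.0% of all genes. No member of either set passed the adjusted test, and their medians were 0.228 and -0.138 SD, in that order. The other probe set of Dnajc10 gave -0.0264 (SE 1.19). The ER-resident list did not hold the ER-anchored Dnajb14 or its relatives Dnajb12 and Dnajc18. These were nominally lower, at -1.41, -0.860 and -1.81 SD.

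Several probe sets measured 26 of the members, and their signs often disagreed. In 9 genes all probe sets lay on the same side of 0, and in 17 they lay on both sides. The 5 that were nominally higher throughout were Dnaja1, Dnajb1, Dnajc14, Hspb7 and Hspb8, and the 4 that were lower were Dnaja4, Dnajb12, Dnajb14 and Hspa2. Dnajc7, a co-chaperone with tetratricopeptide repeats, shows the spread: the probe set that stands for it gave -0.0160 millionths (SE 0.291) and another 2.03 (SE 0.739, 1.72 SD, exact permutation p = 0.0317). Dnajc5 gave 0.0660, 0.453 and -2.06 on its 3 probe sets.

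**Figure D5:**
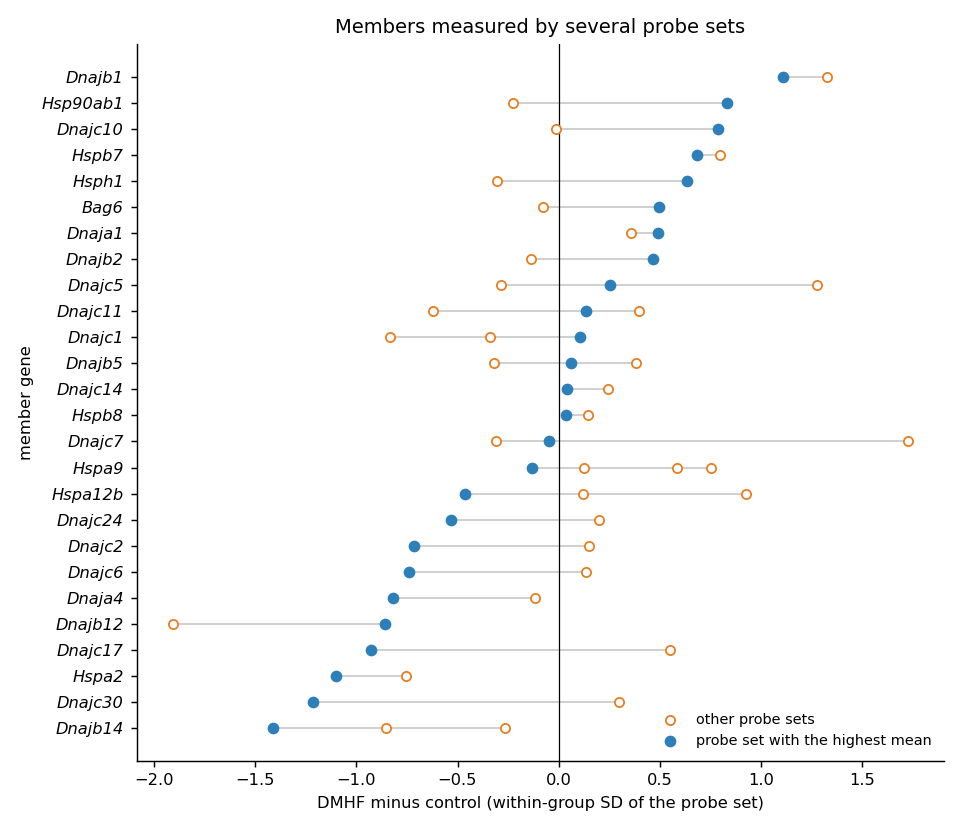
Rows are the 26 members with several probe sets, ordered by the difference of the probe set with the highest mean (filled points), and open points are their other probe sets. The horizontal axis is the difference, DMHF minus control, in within-group SD. Points lie on both sides of 0 in 17 rows, and Dnajb1 and Dnajb14 are among the rows on a single side.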

How the data were processed

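RNA of 10 rats, extracted with ISOGEN II and RNeasy columns and labelled by 3' in vitro transcription per the labels' protocols, was hybridised to Affymetrix arrays. The authors deposited 1 table of processed values for 31099 probe sets, taken as log2 from their range. How they were background-corrected, normalised and summarised is not stated in those sources; the submitters' processing notes name R 2.7.2 alone. After 57 control probe sets were left out, 31042 were tested, of which 20826 named a single gene, 436 several and 9780 are unnamed here (GEO's platform annotation). The identifiers of 20758 were found in NCBI's GRCr8 gene table, which changed 0 symbols.

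DMHF was compared with control in R 4.3.3 with lmFit and eBayes of limma 3.58.1 (two-sided, no covariate, Benjamini-Hochberg over all probe sets, threshold 0.05), and every limma p and adjusted p is from that fit. The fit moves each SE toward a spread pooled over all probe sets, with a weight of 0.841 prior degrees of freedom. The SE of probe sets of small spread is thereby larger than their own. In 4 members the SE exceeded the SD of both groups. Exact permutation tests used every assignment of 5 of the 10 rats, and correlations the 14400 within-group permutations. The fit was tested on simulated normal values with shifts added to 50 probe sets at each of several sizes. At an adjusted p under 0.05 it recovered 8% of shifts of 2 within-group SD and 76% of those of 4 SD. It recovered 98% at 6 SD and 96% at 8 SD, with 10 false calls. A shift of about 2 SD would thus mostly be missed. Groups came from sample titles. The number of arrays limits the precision.

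The members and gene lists were chosen with earlier results of these data known. Named members are 17 of 19 fixed genes that were measured and, not counting those, the 4 with the smallest p on each side, the 2 with the largest SD, the 2 highest and 2 lowest means, and the 2 genes with the smallest p of each list described. Of the marker lists, genes are named for ependyma, choroid plexus, pituitary and astrocytes only, and Prl and Pomc after their values were seen. Dnajb4, Dnajb12, Dnaja4, Dnajc3, Dnajc7, Dnajc14, Dnajc19, Dnajb9, Hspb6, Hspb7, Hspb8, Hspb9 and the probe sets of several genes are named after their values were seen. Protein sequences are not used here.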

Additional observations from a re-analysis of the deposited data

Results flagged for a closer look

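In groups of 5 rats, a highest or lowest value far from the other 4, by Dixon's criterion for the gap relative to the range, was found in 8 of the 58 groups formed by the 29 named members. Chance gives about 1 group in 20 when groups are independent, which these are not. They reuse the same rats, and the heat-inducible genes among them varied together. Some members were also named for their p or SD. The share of such groups over all genes was not computed, so an excess among the named members is not shown. Values are millionths of a log2 unit from the control mean.

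In DMHF rats the highest values standing apart were those of Hsp90ab1 in rat 1 (1.18) and Dnajb1 in rat 3 (1.60), and the lowest was that of Dnajc18 in rat 5 (-6.96). In control rats, rat 3 was lowest for Hspa1a (-5.83) and Bag3 (-12.3) and highest for Hspa4 (0.519). Control rat 5 was lowest for Hspa4l (-2.42) and Dnaja2 (-0.374). Without control replicate 3 the Hspa1a difference was 10.3 millionths in place of 11.7, and that of Hspa4l was -0.397 in place of 0.208 without control replicate 5.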

How the results depend on the processing

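No member passed the adjusted limma test under 5 of the 6 alternatives or with any array left out. With each probe set divided by its own within-group SD, 1 member passed (Dnajc27, adjusted p = 0.0132) and 6 had an unadjusted p under 0.05, against 3. That setting treats an SD estimated from 10 arrays as known, so its p values are too small by construction, and it called 318 probe sets. Shifting each array by its median deviation gave 37 members nominally higher and 33 lower. With the probe set of the largest SD standing for each gene, 6 named members changed sign, at 3.28 (Hspa9), -0.216 (Hsp90ab1), -1.52 (Hsph1), -2.06 (Dnajc5), 0.0780 (Dnajc6) and 0.762 millionths (Dnajc30), since another probe set was read. With single arrays left out, 0 to 0 members passed the adjusted test, 2 to 4 the unadjusted one, 29 to 42 were nominally higher and the median difference was -0.132 to 0.216 SD. Of the 29 named members 8 changed sign in some left-out array, with ranges of -1.07 to 3.58 (Bag3), -0.666 to 3.29 (Chordc1), -11.4 to 13.3 (Dnajb7), -0.0655 to 0.154 (Dnajc5), -0.683 to 0.772 (Hspa4l), -0.401 to 1.75 (Hspa5), -0.496 to 0.117 (Hspa9) and -0.706 to 1.80 millionths (Hspd1). The cause was not tested. The labels do not say whether same-numbered rats share more than a number, such as a day or batch. Their deviations correlated at 0.214, 0.0329, 0.273, 0.0856 and 0.0288 for numbers 1 to 5. Pairs of different numbers were not computed for comparison, so a shared effect was not tested. The replicate block moved no count of calls (0 members past the adjusted test). The smallest adjusted limma p of the members was 0.468 with it, for Dnajb14, and 0.843 without it, for Hspa1a.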

Other observations

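Probe sets annotated to several genes belong to no member and were left out of all counts above. A probe set annotated to both Hspa8, the constitutive Hsp70 of neurons, and Haus8l2 differed by 0.0620 millionths (SE 0.216, exact permutation p = 0.143). The pair annotated to Hsp90aa1, the inducible Hsp90, together with a pseudogene of it differed by 0.0340 (SE 0.216) and -0.0900 (SE 0.235), and the pair annotated to Dnajb6 with its pseudogenes by -0.217 (SE 0.340) and 0.387 (SE 0.343). None of these had a p under 0.05 by limma or by the exact permutation test.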
